A study of Mus musculus with 9 samples.

Results

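The Hox genes of the mouse ovary were described in RNA-seq libraries from whole ovaries of 3 groups: 3 ovaries with a granulosa cell tumour and 3 ovaries with hyperplasia, all heterozygous for the Foxl2 C134W allele (FOXL2 WT/C134W), and 3 wild-type ovaries (FOXL2 WT/WT). C134W is the missense change of the forkhead factor FOXL2 that is found in adult granulosa cell tumours of women. Here the mutant mice carry it in 1 allele, and the labels give no age, strain, other allele or treatment for any group. Hyperplasia 3 and tumour 3 share the title stem A491, and the labels do not say whether they come from the same mouse, nor which other libraries come from separate animals, so each p-value below measures the spread between these 9 libraries only. The members were all protein-coding genes of the GENCODE M21 annotation whose symbol is Hoxa, Hoxb, Hoxc or Hoxd followed by a number: 39 of the 55536 genes in the deposited tables, with 11 in Hoxa, 10 in Hoxb, 9 in Hoxc and 9 in Hoxd. Levels are given as the authors' TPM (a per-length level that can be compared between genes) and comparisons between groups as CPM, read counts set against the TMM-scaled library size.

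Hox genes encode homeodomain transcription factors that give the cells of an embryo their place along the head-to-tail axis. They lie in 4 clusters, and genes of the same position number in different clusters (paralogs) descend from one ancestral gene. Low numbers act and are switched on anteriorly and early, high numbers posteriorly and late, a correspondence of gene order and body position known as collinearity. Adult cells often keep the Hox code of the level at which they formed, held by Polycomb (repressing) and Trithorax (activating) chromatin complexes, and Hoxa9, Hoxa10, Hoxa11 and Hoxa13 are known for patterning the Mullerian duct into oviduct, uterus, cervix and vagina.

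Total counts per library ran between 11661820 in tumour 3 and 20890487 in wild type 1. Tumour 2 stood apart from the other 8 libraries in most Hox genes, as in many other genes, and results that rest on it are given with and without it. Foxl2 itself had 70.36 to 205.8 TPM in tumours, 70.7 to 176.2 TPM in hyperplasia and 72.46 to 97.27 TPM in wild-type ovaries, a level that does not check a single-base allele. Among granulosa markers, the follicle-stimulating hormone receptor gene Fshr was listed at 0 in tumour 2, against 56.66 and 60.79 TPM in tumours 1 and 3.

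Hox RNA in these ovaries was high in the middle of Hoxc and in positions 8 to 10 of Hoxd, low in Hoxa and Hoxb, and near 0 at both ends of the position numbers. 20 of the 39 members averaged at least 1 TPM over the 9 libraries, and 6 averaged at least 10 TPM: Hoxc6, Hoxc8, Hoxc10, Hoxd8, Hoxd9 and Hoxd10. Of the rest, 5 had no count in any library (Hoxb1, Hoxb13, Hoxc12, Hoxc13 and Hoxd12) and 4 had 1 to 4 counts in all 9 together (Hoxa11, Hoxa13, Hoxd1 and Hoxd13). The 6 genes of positions 12 and 13, the most posterior ones, were thus all at or next to 0. Together the 39 members took 263.6, 29.46 and 236.8 TPM in the tumours, 191.6, 263.4 and 252.5 TPM in hyperplasia, and 163.7, 244.9 and 203.6 TPM in wild type; 8 libraries lie in one range and tumour 2 lies far under it.

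**Figure D1:**
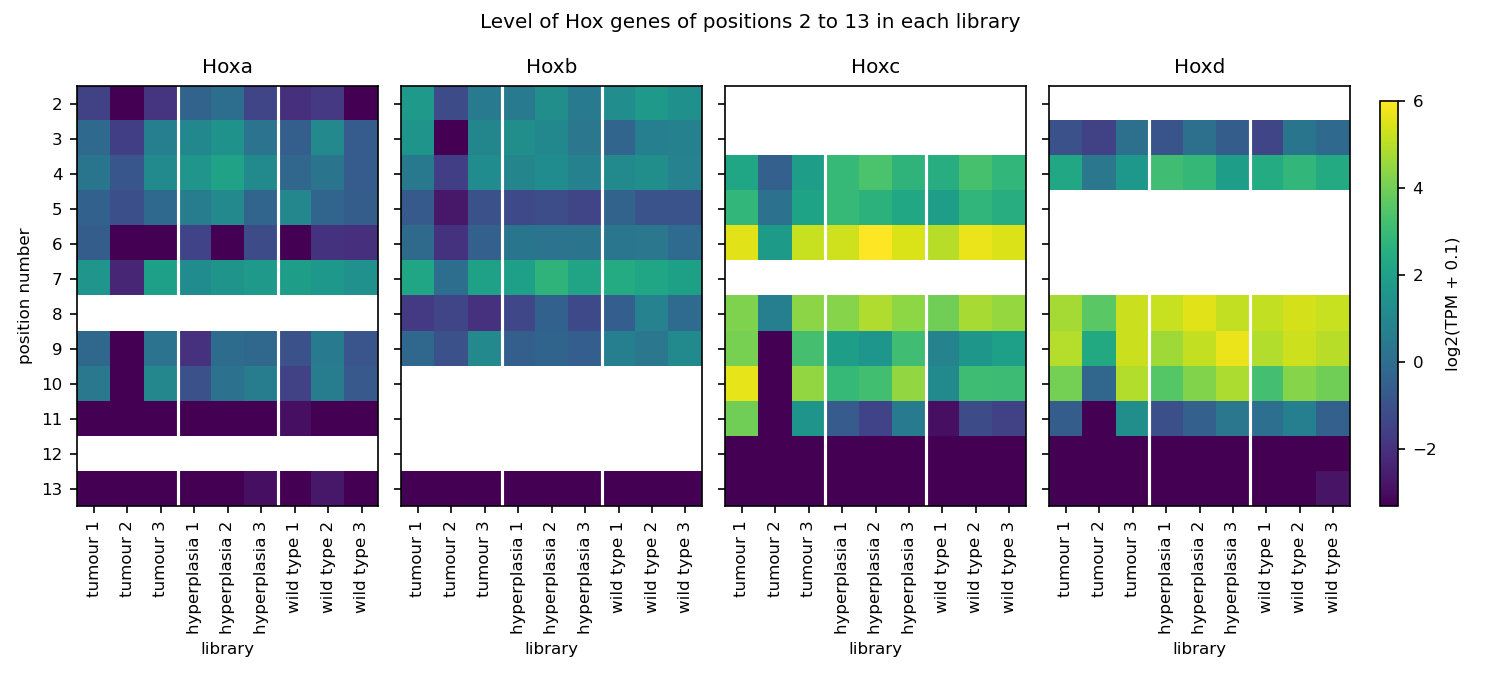
Level of each Hox gene of positions 2 to 13 as log2(TPM + 0.1) (colour), with 1 panel per cluster, position numbers down the page, and the libraries of tumour, hyperplasia and wild type from left to right; white rows are positions with no gene in that cluster. Hoxc6, Hoxc8, Hoxd8 and Hoxd9 are bright in 8 libraries, positions 12 and 13 are dark in all, and the tumour 2 column is dark through most of every panel.

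Hoxc and Hoxd carried most of the Hox RNA. Hoxc summed to 161, 6.52 and 99.54 TPM in tumours, 86.58, 120.9 and 108.7 TPM in hyperplasia and 60.04, 108.2 and 93.33 TPM in wild type. Hoxd summed to 79.93, 19.3 and 112.8 TPM in tumours, 83.13, 111.5 and 122.6 TPM in hyperplasia and 81.52, 110.5 and 91.05 TPM in wild type. In both clusters the 3 groups overlap, and tumour 1 is the highest library for Hoxc while hyperplasia 3 is the highest for Hoxd. Hoxa and Hoxb together made 8.571, 12.36 and 10.34% of the Hox TPM in tumours, 11.44, 11.75 and 8.372% in hyperplasia and 13.54, 10.73 and 9.431% in wild type.

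Within Hoxc, on the plus strand of chromosome 15 (GRCm38, chr15:102921103-103036852), the central genes Hoxc6 and Hoxc8, which in embryos help set the thoracic level of the trunk, were the most abundant in wild-type ovaries. Hoxc6 had 47.38, 3.31 and 37.05 TPM in tumours, 40.02, 63.12 and 44.06 TPM in hyperplasia, and 31.66, 52.55 and 45.64 TPM in wild type. Hoxc8 had 18.35, 1.54 and 20.53 TPM in tumours, 19.9, 29.33 and 20.98 TPM in hyperplasia, and 15.53, 27.21 and 22.71 TPM in wild type. For both genes the groups overlap in TPM, hyperplasia 2 is the highest library and tumour 2 the lowest. Hoxc4, at the anterior end, had 4.47, 0.62 and 3.51 TPM in tumours, against 5.48, 9.75 and 7.13 TPM in wild type, so all 3 tumours lie under all 3 wild-type ovaries; hyperplasia had 7.54, 10.11 and 6.58 TPM. Hoxc5 had 1.05 to 7.19 TPM in tumours, 4.56 to 7.55 TPM in hyperplasia and 3.56 to 6.91 TPM in wild type. It shares 5.37% of its exon bases with Hoxc10 on the same strand, so a few of the reads of either can be assigned to the other.

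Hoxd lies on the plus strand of chromosome 2 (chr2:74668310-74765142), and Hoxd8, Hoxd9 and Hoxd10 made nearly all of its RNA. Hoxd8 had 26.7, 12.21 and 38.53 TPM in tumours, 36.97, 48.2 and 35.48 TPM in hyperplasia, and 35.11, 42.04 and 36.83 TPM in wild type. It was the most abundant Hox gene of tumour 2. Hoxd9 had 31.25, 4.92 and 38.02 TPM in tumours, 25.12, 35.61 and 53.08 TPM in hyperplasia, and 30.63, 38.69 and 31.8 TPM in wild type. Hoxd10 had 16.46, 0.74 and 29.96 TPM in tumours, 11.48, 18.75 and 28.67 TPM in hyperplasia, and 9.27, 19.88 and 15.73 TPM in wild type. The groups overlap for all 3 genes. Hoxd4 had 4.55, 1.18 and 3.02 TPM in tumours, 8.74, 7.38 and 3.62 TPM in hyperplasia, and 5.26, 7.14 and 5.15 TPM in wild type. It shares 52.3% of its exon bases with Hoxd3 and Gm28230 on the same strand, so its counts, and those of Hoxd3 at 0.25 to 1.14 TPM, depend on how RSEM split shared reads.

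The promoters of these 3 neighbouring genes of high level are shown because they differ in CG content. They are RefSeq's sequences (GRCm38.p6), from 250 bases before to 50 bases after the annotated start, 5′ to 3′ on the plus strand, with each CG dinucleotide in capitals: Hoxd10 at chr2:74691641-74691940 has 22, Hoxd9 at chr2:74697513-74697812 has 20, and Hoxd8 at chr2:74704365-74704664 has 6.
Hoxd10: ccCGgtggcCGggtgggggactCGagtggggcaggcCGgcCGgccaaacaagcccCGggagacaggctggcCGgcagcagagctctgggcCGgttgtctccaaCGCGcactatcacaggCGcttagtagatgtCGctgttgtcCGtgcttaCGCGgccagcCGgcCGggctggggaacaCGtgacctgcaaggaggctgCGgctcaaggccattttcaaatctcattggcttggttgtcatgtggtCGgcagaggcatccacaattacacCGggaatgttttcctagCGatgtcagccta
Hoxd9: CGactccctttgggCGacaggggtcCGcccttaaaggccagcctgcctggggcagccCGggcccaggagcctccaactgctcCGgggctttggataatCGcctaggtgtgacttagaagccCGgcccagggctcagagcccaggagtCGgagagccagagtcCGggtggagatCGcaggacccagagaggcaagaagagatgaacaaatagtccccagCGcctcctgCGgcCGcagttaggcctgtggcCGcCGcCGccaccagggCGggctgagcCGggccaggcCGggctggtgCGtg
Hoxd8: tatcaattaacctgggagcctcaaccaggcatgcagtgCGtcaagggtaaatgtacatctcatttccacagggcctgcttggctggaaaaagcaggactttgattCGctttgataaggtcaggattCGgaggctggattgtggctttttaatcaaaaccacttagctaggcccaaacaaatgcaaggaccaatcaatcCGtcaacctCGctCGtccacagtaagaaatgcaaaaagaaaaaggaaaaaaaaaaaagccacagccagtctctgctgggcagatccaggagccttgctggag
The median over the 24 promoters that RefSeq's table holds for 22 members was 14.5 CG dinucleotides, against 7.0 over all 32851 promoters of the same length in that table. The 4 CG-richest of the 24, looked up after their values were seen, do not belong to genes of high level here: Hoxa13 had 45, Hoxd13 37, and Hoxa5 and Hoxd1 29 each, and Hoxa13, Hoxd13 and Hoxd1 were among the genes with 1 to 4 counts.

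The Hoxa genes (minus strand of chromosome 6) and Hoxb genes (plus strand of chromosome 11, chr11:96194316-96368256) were each a few TPM or less. Averaged over the 9 libraries, the highest of each cluster was that of position 7. Hoxb7 had 4.42, 0.93 and 3.93 TPM in tumours, 3.71, 6.67 and 4.29 TPM in hyperplasia and 5.29, 4.44 and 3.81 TPM in wild type. Hoxa7 had 2.84, 0.1 and 3.71 TPM in tumours, 2.22, 2.75 and 3.19 TPM in hyperplasia and 3.62, 3.0 and 2.5 TPM in wild type. Both sets of values overlap between groups. Hoxb2 had 0.35 to 3.1 TPM in tumours, 1.34 to 2.35 TPM in hyperplasia and 2.25 to 3.13 TPM in wild type. Hoxb3 and Hoxb4 stayed under 3 TPM in every library. Hoxa4 had 0.46 to 2.07 TPM in tumours, 2.09 to 4.09 TPM in hyperplasia and 0.55 to 1.1 TPM in wild type, and in hyperplasias 1 and 2 it lay over Hoxa7. Hoxa5 had 0.39 to 0.82 TPM in tumours, 0.73 to 2.02 TPM in hyperplasia and 0.57 to 1.88 TPM in wild type. Of the Mullerian duct genes, Hoxa9 had 0.0 to 1.08 TPM in tumours, 0.15 to 0.89 TPM in hyperplasia and 0.4 to 1.31 TPM in wild type. Hoxa10 had 0.0 to 1.91 TPM in tumours, 0.4 to 1.44 TPM in hyperplasia and 0.25 to 1.46 TPM in wild type. Hoxa2, Hoxa6, Hoxb5 and Hoxd3 each averaged under 1 TPM, as did Hoxb6 and Hoxd11. Hoxa3, Hoxa7, Hoxa11, Hoxb2 and Hoxb3 share over 20% of their exon bases with antisense genes, and no source used here says whether the counting used strand, although the libraries were made with a stranded kit.

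By position number, summed over the 4 clusters, the level had 2 peaks, at position 6 and over positions 8 to 10, with position 7 low between them. Position 8 had 45.25, 14.04 and 59.21 TPM in tumours, 57.17, 78.17 and 56.78 TPM in hyperplasia and 51.23, 70.92 and 60.39 TPM in wild type. Position 10 had 68.49, 0.74 and 54.15 TPM in tumours, 19.37, 28.74 and 52.74 TPM in hyperplasia and 11.58, 29.8 and 24.63 TPM in wild type. At position 10, tumours 1 and 3 and hyperplasia 3 thus lie over all wild-type ovaries, and tumour 2 under them. Position 11 had 16.33, 0.0 and 5.02 TPM in tumours, 0.93, 0.89 and 2.51 TPM in hyperplasia and 1.02, 1.86 and 0.89 TPM in wild type. At position 11 the same libraries stand out.

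**Figure D2:**
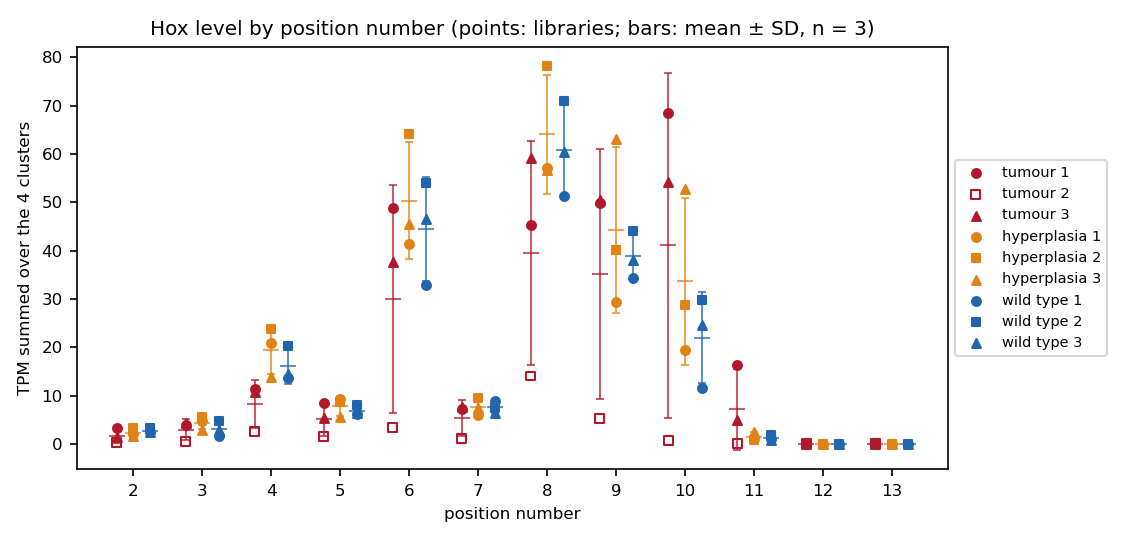
TPM summed over the 4 clusters (vertical axis) by position number from 2 to 13 (horizontal axis); points are libraries, and short bars with whiskers are the mean ± SD of tumour, hyperplasia and wild type (n = 3 each, left to right within a position). At position 10 tumours 1 and 3 reach 68.49 and 54.15 TPM and hyperplasia 3 reaches 52.74 TPM, against at most 29.8 TPM in wild type, while the open squares of tumour 2 lie at the bottom of positions 2 to 11.

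The question of the series' design is which genes are dysregulated in tumours compared with normal ovaries. No Hox gene passed the threshold between tumour and wild type. Of the 39 members, 26 passed the filter on low counts and were tested among 16213 genes; edgeR's quasi-likelihood test with Benjamini-Hochberg adjustment at 0.05 called 0 of them, against 259 of all genes (1.6%). At an unadjusted p under 0.05 there were 4 of the 26 (Hoxb8, Hoxc11, Hoxc4 and Hoxd4), against 20.1% of all genes tested, and DESeq2's Wald test called 1, Hoxc11, against 10.8% of all genes; limma-voom called 0, against 1.67%. The fitted log2 fold change, tumour over wild type, was above 0 for 8 and below 0 for 18 of the 26, with a median of -0.58, beside 0.01 over all genes. Without tumour 2 the median was -0.10, beside -0.04 over all genes, and edgeR called 0 of 28 tested, against 0.413% of all genes.

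The genes with the largest fitted differences in the upward direction were Hoxc9, Hoxc10 and Hoxc11, neighbours on the posterior side of Hoxc that in embryos act from the lower trunk to the hind limb level; Hoxc9 was singled out after its values were seen. Hoxc11 had 15.76, 0.0 and 2.71 TPM in tumours, 0.54, 0.27 and 1.3 TPM in hyperplasia and 0.03, 0.34 and 0.26 TPM in wild type, from 290, 0 and 36 counts in tumours and 1, 6 and 5 counts in wild type. Hoxc10 had 50.79, 0.0 and 22.28 TPM in tumours, 7.49, 8.94 and 22.63 TPM in hyperplasia and 2.06, 8.46 and 8.39 TPM in wild type. Hoxc9 had 17.1, 0.0 and 9.36 TPM in tumours, 3.54, 2.9 and 8.63 TPM in hyperplasia and 1.72, 2.94 and 3.71 TPM in wild type. In all 3 genes tumours 1 and 3 lie over every wild-type library, and tumour 2 had no count, where 3 counts would be 0.293 CPM. Since 2 of 3 tumours lie over and 1 under the wild type, the groups overlap.

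The log2 fold change of Hoxc11, tumour over wild type, was 4.99 (SE 1.62, edgeR's quasi-likelihood test with Benjamini-Hochberg adjusted p = 0.132). Over the alternatives its adjusted p ran between 0.00696, with DESeq2's Wald test, which called it, and 0.501, with limma-voom. The fold change itself rested on tumour 1, which held 290 of the counts: without that library it was 2.71 (adjusted p = 0.377, edgeR). With limma-voom it was 3.10, on log2(TPM + 0.1) it was 2.59, and on log2(TPM + 1) it was 1.72. For Hoxc10 the log2 fold change was 2.02 (SE 1.301, adjusted p = 0.432, edgeR), and for Hoxc9 it was 1.65 (SE 1.20, adjusted p = 0.488, edgeR). With limma-voom and all 9 libraries both turned below 0, to -0.28 for Hoxc10 and -0.38 for Hoxc9. On log2(TPM + 0.1) both were below 0 too. Without tumour 2, the edgeR values were 5.58 for Hoxc11 (SE 1.04, adjusted p = 0.055), 2.61 for Hoxc10 (SE 0.64, adjusted p = 0.0768) and 2.23 for Hoxc9 (SE 0.53, adjusted p = 0.0727), still not past the threshold. The differences between tumour and wild type thus did not pass edgeR's test, with or without tumour 2.

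**Figure D3:**
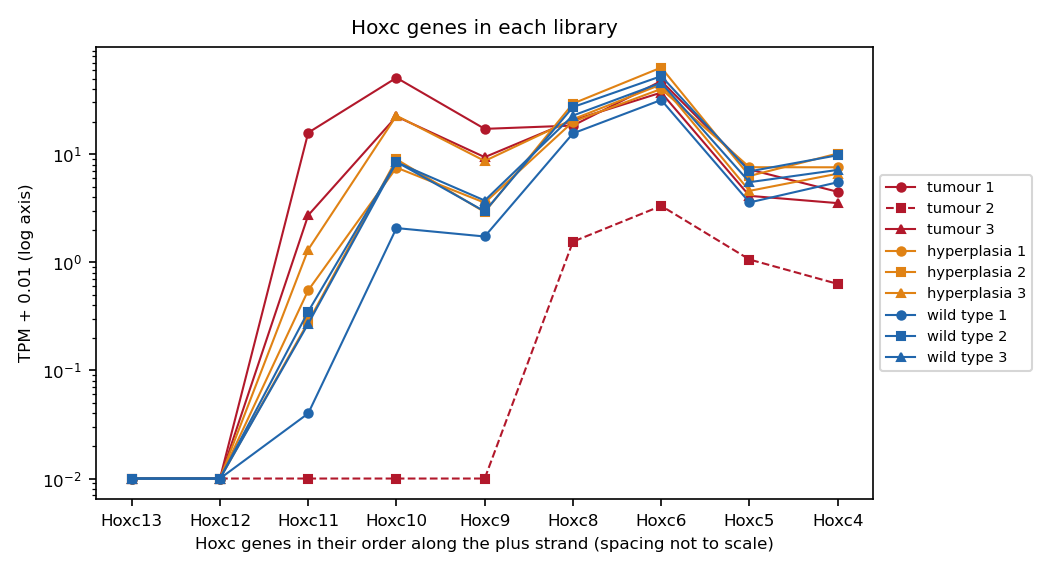
TPM + 0.01 on a log axis for the 9 Hoxc genes in their order along the chromosome, 1 line per library (red tumour, orange hyperplasia, blue wild type; dashed line tumour 2). The lines of 8 libraries run together from Hoxc8 to Hoxc4 and spread at Hoxc9, Hoxc10 and Hoxc11, where tumour 1 is highest (50.79 TPM at Hoxc10) and tumour 2 is at 0.

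Positions 9 to 13 made 51.94, 0.0 and 34.51% of the Hoxc TPM in tumours, 13.36, 10.01 and 29.94% in hyperplasia and 6.346, 10.85 and 13.24% in wild type. Tumours 1 and 3 and hyperplasia 3, which shares the stem A491 with tumour 3, are the 3 high libraries. The anterior and central genes Hoxc4, Hoxc5, Hoxc6 and Hoxc8 summed to 77.39, 6.52 and 65.19 TPM in tumours, 75.01, 108.8 and 76.18 TPM in hyperplasia and 56.23, 96.42 and 80.97 TPM in wild type, where those 3 libraries do not stand out.

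In the downward direction, 4 of the 26 members tested had all 3 tumours under all 3 wild-type ovaries in CPM (Hoxb8, Hoxc4, Hoxc8 and Hoxd4), against 13.4% of all genes tested, and 0 had all tumours over the wild type, against 10.6%. Hoxb8, of a position that in embryos patterns the trunk and that also serves in blood progenitors, had 0.331, 0.293 and 0.084 CPM in tumours, 0.375, 0.725 and 0.383 CPM in hyperplasia, and 0.995, 1.53 and 0.862 CPM in wild type. Those levels come from 5, 3 and 1 counts in tumours, 7, 10 and 8 counts in hyperplasia, and 20, 26 and 15 counts in wild type. In CPM all 6 mutant ovaries lie under all 3 wild-type ovaries. In TPM they overlap, with 0.64 TPM in hyperplasia 2 and 0.59 TPM in wild type 1. The log2 fold change, tumour over wild type, was -2.21 (SE 0.62, adjusted p = 0.096, edgeR), the smallest adjusted p of any member in any of the 4 comparisons by edgeR with all 9 libraries. Over the alternatives its adjusted p ran between 0.058 and 0.245, and it was 0.122 without tumour 2.

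The other 3 rested more on tumour 2. Hoxc4 had 5.56, 1.17 and 3.95 CPM in tumours, against 9.05, 10.2 and 7.82 CPM in wild type, with a log2 fold change of -1.33 (SE 0.50, adjusted p = 0.181, edgeR) and of -0.92 without tumour 2. Hoxd4 had 4.11, 1.66 and 2.86 CPM in tumours, against 6.61, 6.48 and 5.63 CPM in wild type, with a log2 fold change of -1.11 (SE 0.45, adjusted p = 0.208, edgeR) and of -0.84 without tumour 2. Hoxc8 had 21.1, 2.83 and 22.3 CPM in tumours, against 27.2, 28.2 and 24.4 CPM in wild type, with a log2 fold change of -0.78 (SE 0.58, adjusted p = 0.498, edgeR) and of -0.29 without tumour 2. None of these passed the threshold.

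**Figure D4:**
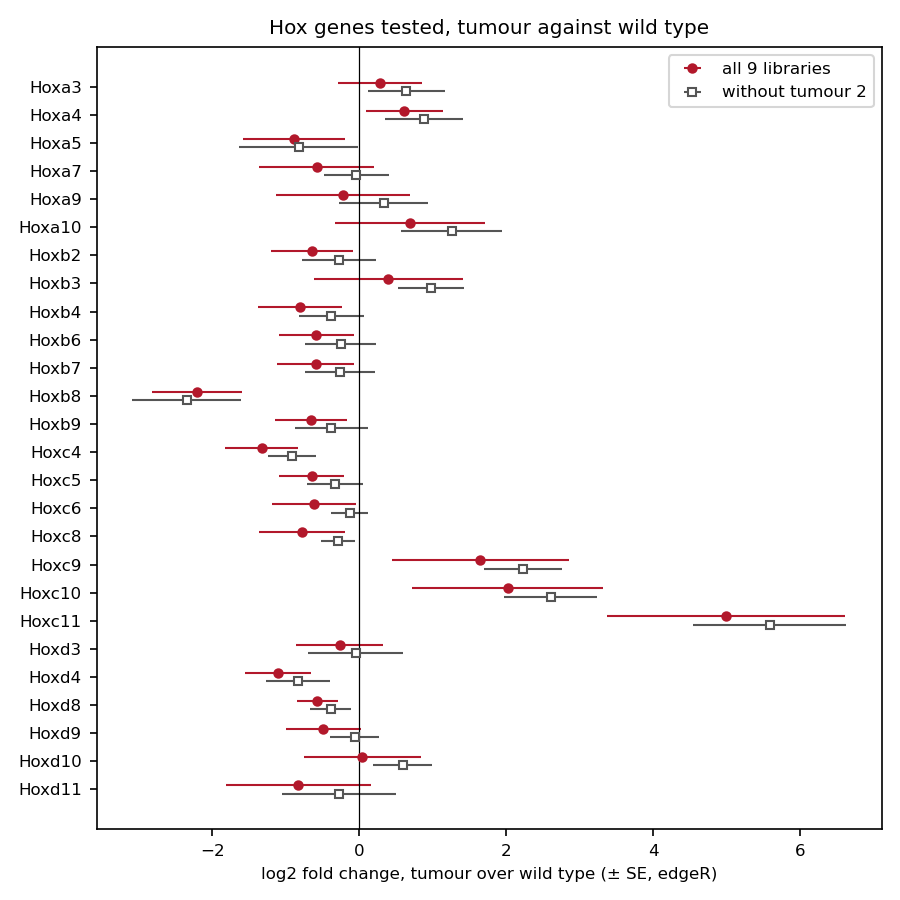
log2 fold change of the 26 Hox genes tested, tumour over wild type, ± SE from edgeR (horizontal axis), with all 9 libraries (filled circles) and without tumour 2 (open squares). Hoxc11 is farthest right at 4.99 and Hoxb8 farthest left at -2.21; without tumour 2 most values move to the right, and the SE bars of Hoxc9 and Hoxc10 shorten.

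Hoxb8 was among 3 members whose RefSeq promoter holds the forkhead core TAAACA on either strand, the letters that forkhead proteins as a family are known to bind. It is shown as the member with the smallest adjusted p by edgeR with all 9 libraries, at chr11:96281655-96281954 (GRCm38.p6, plus strand, 5′ to 3′), with TAAACA and its reverse complement TGTTTA in capitals.
Hoxb8: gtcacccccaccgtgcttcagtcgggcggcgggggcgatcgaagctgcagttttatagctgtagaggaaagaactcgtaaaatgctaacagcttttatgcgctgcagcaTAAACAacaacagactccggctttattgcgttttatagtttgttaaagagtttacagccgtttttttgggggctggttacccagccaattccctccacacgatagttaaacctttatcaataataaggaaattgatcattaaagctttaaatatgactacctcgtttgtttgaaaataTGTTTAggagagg
The other two genes with a match were Hoxa10 and Hoxd4, so 12.5% of the 24 Hox promoters held it, against 13.44% of all promoters of that length. The matches are a description of these letters only.

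Between hyperplasia and wild type no Hox gene passed the threshold either. Of the 26 tested, edgeR's test called 0, as it did of all 16213 genes (0.0%), with 2 members (Hoxa4 and Hoxb9) at an unadjusted p under 0.05, against 3.53% of all genes. DESeq2's Wald test called 0 of the members, against 0.111% of all genes, and limma-voom 0, against 0.0%. The median log2 fold change of the 26, hyperplasia over wild type, was -0.02, beside -0.003 over all genes. In CPM, Hoxa3 and Hoxa4 did not overlap upward, against 4.63% of all genes, and Hoxb8 and Hoxb9 did not overlap downward, against 5.18%.

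Hoxa4, an anterior gene of the neck and upper trunk, had 2.36, 3.41 and 1.82 CPM in hyperplasia, against 0.945, 0.883 and 0.460 CPM in wild type, so that each hyperplastic ovary lies over each wild-type one. Its log2 fold change, hyperplasia over wild type, was 1.71 (SE 0.52, unadjusted p = 0.00903, adjusted p = 0.999, edgeR). Hoxb9, of the thoracic level, had 0.857, 0.869 and 0.815 CPM in hyperplasia, against 3.13, 1.59 and 2.64 CPM in wild type, with a log2 fold change of -1.53 (SE 0.50, adjusted p = 0.999, edgeR). The 3 hyperplastic ovaries are close to each other and all lower. Hoxa3, named after its values were seen, had 2.78, 3.77 and 1.58 CPM in hyperplasia, against 1.34, 1.296 and 0.805 CPM in wild type; in TPM its groups overlap, with 1.06 TPM in hyperplasia 3 and 1.99 TPM in wild type 2. The largest fitted value was that of Hoxc11, at a log2 fold change of 1.79 (SE 1.52, adjusted p = 0.999, edgeR). Values of smooth muscle markers are given beside these. The 8 listed summed to 4105, 6238 and 2407 TPM in hyperplasia, against 1276, 2535 and 1072 TPM in wild type, with none at 0, and the sums overlap. Of the 8, edgeR, DESeq2's Wald test and limma-voom each called 0, and 3 had an unadjusted edgeR p under 0.05, against 3.53% of all genes. Their median log2 fold change, hyperplasia over wild type, was 1.17. Their part in the Hox values was not tested.

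Between tumour and hyperplasia edgeR's test called 0 of the 26 Hox genes, against 30 of all genes (0.185%), with 2 members at an unadjusted p under 0.05 (Hoxc4 and Hoxd4), against 14.1% of all genes. DESeq2's Wald test called 0, against 5.03%, and limma-voom 0, against 0.0247%. The median log2 fold change, tumour over hyperplasia, was -0.43, beside 0.05 over all genes. Without tumour 2 it was -0.06, beside 0.01, with 0 of 28 members called, against 0.0599% of all genes. The 3 largest were Hoxc11 at 3.20 (SE 1.45, adjusted p = 0.361, edgeR), Hoxc4 at -1.31 (SE 0.50, adjusted p = 0.293, edgeR) and Hoxd4 at -1.17 (SE 0.45, adjusted p = 0.295, edgeR). In CPM, 1 member did not overlap upward (Hoxb9, 9.54% of all genes) and 3 did not overlap downward (Hoxa4, Hoxb8 and Hoxc4, 12.4% of all genes). Markers of other cell types also differed between tumour and hyperplasia. Of 8 smooth muscle genes, all had a fitted value below 0, with a median log2 fold change, tumour over hyperplasia, of -3.15. Of these, 1 fell by edgeR's test, Lmod1, an actin filament gene of smooth muscle, at -2.84 (SE 0.40, adjusted p = 0.0363, edgeR), and DESeq2's Wald test called 7. Of 10 macrophage and lymphocyte genes, all had a fitted value below 0, and 1 fell, the pan-leukocyte gene Ptprc, at -2.05 (SE 0.27, adjusted p = 0.0363, edgeR). With 1 of the 6 libraries left out, edgeR called 0 genes of either list, except without hyperplasia 3, where it called 2 and 1. Of 9 oocyte genes edgeR called 0, with 7 at an unadjusted p under 0.05, DESeq2's Wald test called 6 and limma-voom 0. Without hyperplasia 3 edgeR called 5 of the 9 oocyte genes, and without any other 1 of the 6 libraries it called 0. The part of these cells in the Hox values was not tested. This comparison and the 2 before it share libraries, so their values are not independent of each other.

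With both C134W groups set against wild type, edgeR's test again called 0 of the 26, against 2 of all genes (0.0123%), with 4 members (Hoxa4, Hoxb8, Hoxb9 and Hoxc11) at an unadjusted p under 0.05, against 11.8% of all genes. DESeq2's Wald test called 0 of the members, against 3.65% of all genes, and limma-voom 0, against 1.22%. Without tumour 2 edgeR called 0 of 28, against 0.0419% of all genes. The largest log2 fold changes, C134W over wild type, were 3.39 for Hoxc11 (SE 1.46, adjusted p = 0.409, edgeR), -1.70 for Hoxb8 (SE 0.48, adjusted p = 0.185, edgeR) and 1.52 for Hoxc10 (SE 1.17, adjusted p = 0.667, edgeR). Only Hoxb8 among the 26 had all 6 mutant ovaries on one side of the wild type in CPM, below it, against 2.69% of all genes, and none had all 6 above it, against 1.63%.

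Tumour 2 was low in Hox RNA as a whole. In TPM it was the lowest of the 9 libraries for 20 of the 20 members that average at least 1 TPM, against 40.72% of all 15360 genes at that level. There, 18 of the 39 members had no count, against 7 to 10 in each other library. The median member had 14.87% of the mean of tumours 1 and 3, beside 61.82% for the median of all genes. In CPM, which corrects for the shift of all genes, tumour 2 was lowest for 17 of the 20, against 21.97% of all genes, and the median member had 24.03% of the mean of tumours 1 and 3, beside 100.2% for all genes. Hoxd8 at 12.21 TPM, Hoxd9 at 4.92 TPM and Hoxc6 at 3.31 TPM were the highest that remained. In bulk ovaries, fewer cells of a type and less RNA per cell cannot be told apart.

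Summed levels of cell type markers are given beside the Hox values. The 10 ovarian surface epithelium markers, keratins and uroplakins among them, summed to 2223, 10.22 and 965.7 TPM in tumours, 315.8, 406.8 and 1059 TPM in hyperplasia and 242.3, 324.5 and 387.5 TPM in wild type. None of the 10 was at 0 in tumour 2, where the keratin gene Krt19 had 0.15 TPM. Hoxc9, Hoxc10 and Hoxc11 together had 83.65, 0.0 and 34.35 TPM in tumours, 11.57, 12.11 and 32.56 TPM in hyperplasia and 3.81, 11.74 and 12.36 TPM in wild type. Both sums were highest in tumour 1, tumour 3 and hyperplasia 3 and lowest in tumour 2. The 13 stroma and theca markers summed to 2972, 765.2 and 3119 TPM in tumours, 3293, 3069 and 3446 TPM in hyperplasia and 1224, 2822 and 2598 TPM in wild type, low in tumour 2 and wild type 1. The 12 granulosa markers summed to 3871, 2919 and 5317 TPM in tumours, 3342, 1053 and 3131 TPM in hyperplasia and 3086, 1926 and 3442 TPM in wild type, with only Fshr at 0 in tumour 2. Of the 10 surface epithelium, 13 stroma and theca and 12 granulosa genes, edgeR with all 9 libraries called 0 in any comparison. Between tumour and wild type 0, 2 and 4 of them had an unadjusted p under 0.05, against 20.1% of all genes. DESeq2's Wald test called 0, 1 and 3 there, against 10.8% of all genes. The share of the Hox values that comes from these cells was not tested.

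**Figure D5:**
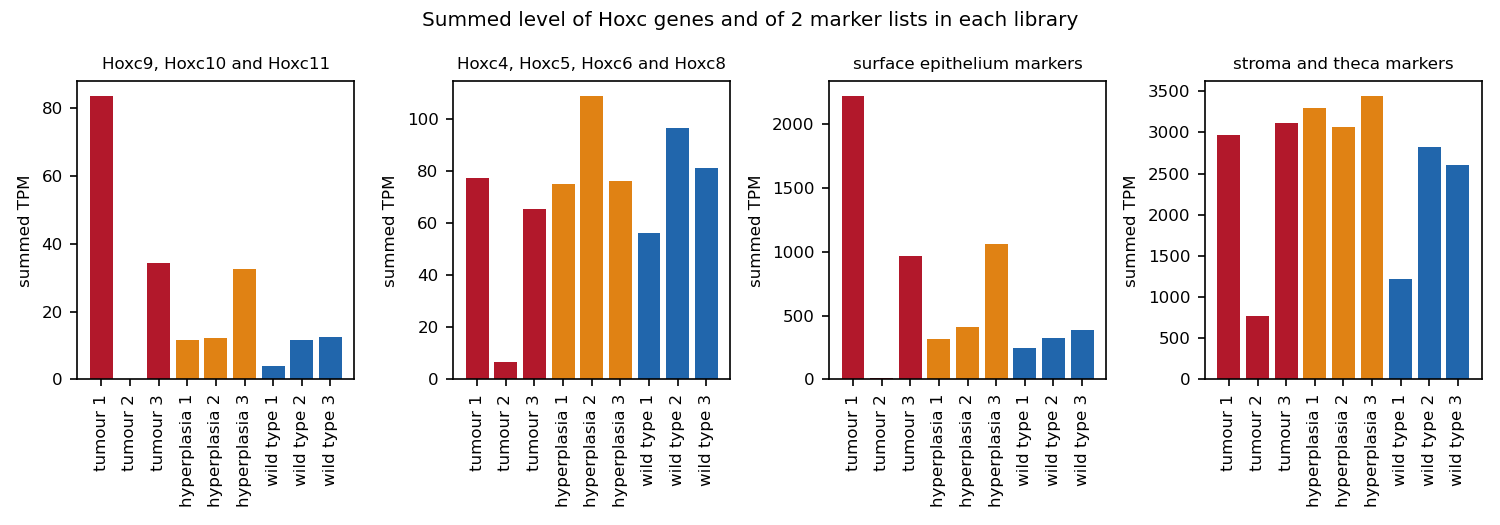
Summed TPM (vertical axis, from 0) in each library for Hoxc9 to Hoxc11, for Hoxc4 to Hoxc8, for 10 surface epithelium markers and for 13 stroma and theca markers, with bars in the order tumour (red), hyperplasia (orange) and wild type (blue). Hoxc9 to Hoxc11 and the surface epithelium markers are both highest in tumour 1, at 83.65 and 2223 TPM, and Hoxc4 to Hoxc8 are not.

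Some oocyte, fat and immune markers differed between tumour and wild type, where edgeR called 1.6% of all genes. Of 9 oocyte genes tested 5 fell, with the egg coat gene Zp3 at 0.0 to 0.25 TPM in tumours, against 24.02 to 30.96 TPM in wild type (adjusted p = 0.0471, edgeR). Of 7 adipocyte genes 1 fell, Cfd, listed at 0 in every tumour, against 14.34 to 45.52 TPM in wild type (adjusted p = 0.0403, edgeR). Of 10 macrophage and lymphocyte genes 2 fell, the integrin gene Itgam, at a log2 fold change of -1.65 (SE 0.31, adjusted p = 0.0451, edgeR), and the pan-leukocyte gene Ptprc, also at -1.65 (SE 0.27, adjusted p = 0.0356, edgeR). With any 1 of the 6 libraries left out, edgeR called 0 genes of these 3 lists, except for the macrophage gene Cd68 without tumour 2, which was not called with all libraries. The 8 smooth muscle genes summed to 409.1, 215.5 and 914.9 TPM in tumours, each under every wild-type ovary. All 8 had a fitted value below 0, with a median log2 fold change, tumour over wild type, of -1.75. Of them, edgeR and limma-voom called 0, and DESeq2's Wald test called 6, against 10.8% of all genes. An unadjusted edgeR p under 0.05 was reached by 6, against 20.1% of all genes. The part of these cells in the Hox values was not tested. Of 12 Mullerian duct and oviduct genes, 4 were tested, and edgeR called 0 in any comparison. Between tumour and wild type 3 of the 4 had an unadjusted p under 0.05, against 20.1% of all genes. DESeq2's Wald test called 3, against 10.8% of all genes. Ovgp1 had 58.95 TPM in wild type 2 and at most 3.27 TPM elsewhere. Foxj1, Cdhr4, Dnah5 and Sox17 were also highest in wild type 2, at 3.64, 2.74, 0.93 and 12.68 TPM. The other listed genes were highest in other libraries, with Emx2 at 83.66 TPM in tumour 1 and Msx1 at 24.61 TPM in tumour 2. The part of oviduct cells in the Hox values was not tested.

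Of the RNAs of the clusters that are not protein coding, 47 are annotated between the outer Hox genes with 5 kb at each end. Of these, 20 had a count, the 7 microRNA genes had none, and 6 passed the filter. Of the 6, edgeR, DESeq2's Wald test and limma-voom called 0 in any comparison. At an unadjusted edgeR p under 0.05 there was 0 between tumour and wild type, against 20.1% of all genes. For both C134W groups there was 1, against 11.8%. Hotair, the long RNA on the minus strand between Hoxc11 and Hoxc12 (chr15:102944062-102947730), had 24, 0 and 10 counts in tumours, 0, 0 and 8 counts in hyperplasia and 0 counts in each wild-type ovary. It appears in the same 3 libraries that are high for Hoxc9 to Hoxc11. Pooled over the 3 libraries of each group, it was at least 16.6-fold higher in tumours than 3 counts over the wild type would be. This bound covers counting error only, not the spread between libraries, and tumour 2, with 0 counts, does not meet it. Without tumour 1, the bound was 8.20-fold. With all 9 libraries Hotair did not pass the filter, so it was not tested there. Without tumour 2, 8 of the 47 RNAs passed the filter, and edgeR called 0 of them between tumour and wild type. Hoxd3os1, annotated as an antisense RNA of Hoxd, had 5.36, 12.8 and 4.45 CPM in tumours, 4.60, 5.22 and 4.60 CPM in hyperplasia and 8.41, 3.95 and 5.29 CPM in wild type, and was thus highest in tumour 2, unlike the coding Hox genes.

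Genes of proteins that work with HOX proteins or on Hox chromatin did not pass the threshold of edgeR's test in any comparison. Between tumour and wild type 3 TALE, 6 Polycomb and 2 Trithorax-type genes had an unadjusted p under 0.05, of 11, 26 and 16 tested, against 20.1% of all genes. DESeq2's Wald test called 1 TALE gene (Tgif1), 1 Polycomb gene (Pcgf2) and 0 Trithorax-type genes, against 10.8% of all genes, and limma-voom called 0. All 11 TALE homeodomain genes, whose proteins bind DNA together with HOX proteins, were tested. The smallest p between tumour and wild type was that of Tgif1, at a log2 fold change of 0.90 (SE 0.29, adjusted p = 0.131, edgeR). Of 26 Polycomb genes, the smallest were Pcgf2, at 0.69 (SE 0.21, adjusted p = 0.121, edgeR), and Cbx7, at -0.85 (SE 0.34, adjusted p = 0.204, edgeR). Of 16 Trithorax-type genes, they were Men1, at 0.55 (SE 0.19, adjusted p = 0.157, edgeR), and Mllt1, at 0.71 (SE 0.27, adjusted p = 0.181, edgeR). The median log2 fold changes of the 3 lists were 0.13, -0.02 and 0.15, beside 0.01 over all genes. Without tumour 2 they were 0.23, -0.02 and 0.31, beside -0.04 over all genes.

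Of 15 Cdx and retinoic acid genes, inputs that switch Hox genes on in the embryo, 9 were tested and edgeR called 0 in any comparison. The retinoic acid breaking enzyme Cyp26b1 had 1.22, 0.49 and 0.6 TPM in tumours, 5.34, 7.98 and 3.48 TPM in hyperplasia and 1.27, 3.96 and 5.68 TPM in wild type. Its log2 fold change, tumour over wild type, was -2.18 (SE 0.50, adjusted p = 0.0636, edgeR). It was the 1 gene of the 9 with an unadjusted p under 0.05 there, against 20.1% of all genes. DESeq2's Wald test called it alone, against 10.8% of all genes. Cdx1, Cdx2 and Cdx4 had at most 0.06 TPM in any library. The retinoic acid making enzyme Aldh1a2, named after its values were seen, had 337.4, 2.33 and 157.4 TPM in tumours. It had 90.87, 158.8 and 208.8 TPM in hyperplasia and 40.0, 296.9 and 151.2 TPM in wild type. It was lowest in tumour 2, as were 40.72% of all genes of at least 1 TPM on average. Rarb and Rxrg of the same list were highest in tumour 2, at 3.83 and 1.83 TPM. The part of these genes in the Hox values was not tested. Of the 13 protein-coding neighbours of the clusters, 9 were tested and edgeR called 0. Between tumour and wild type 3 had an unadjusted edgeR p under 0.05, against 20.1% of all genes. DESeq2's Wald test called 2 there, against 10.8% of all genes. The smallest p were those of Calcoco1, at a log2 fold change of 0.88 (SE 0.245, adjusted p = 0.0956, edgeR), and Lnpk, at -0.88 (SE 0.29, adjusted p = 0.134, edgeR). Of the homeobox genes next to Hoxa13 and Hoxd13, Evx2 was at 0 in all 9 libraries. Evx1 was at 0 in all 3 tumours and in hyperplasias 2 and 3. It had 0.42 TPM in hyperplasia 1 and 0.26 to 0.43 TPM in wild type.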

How the data were processed

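RNA of whole dissected ovaries was extracted with Trizol and made into stranded mRNA libraries, per the labels' protocols. The authors used STAR 2.7.1a, Picard 2.8.1 and RSEM 1.3.1 with GRCm38, per the submitters' processing notes. Per the file headers, each deposited table gives per gene RSEM's expected counts, TPM and FPKM. The deposited expected counts were rounded and tested; the deposited TPM were used for levels; the deposited FPKM were not used. All 55536 gene IDs were found in GENCODE M21.

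All 9 libraries entered 1 edgeR 4.0.16 quasi-likelihood fit in R 4.3.3 (TMM; genes under filterByExpr's minimum of 10 counts, or of 15 in total, left out; Benjamini-Hochberg adjustment, threshold 0.05), checked on simulated counts. Between tumour and wild type the median SE of a log2 fold change was 0.38, which limits what 3 libraries a group can show. CPM used the fit's effective library sizes; a floor is 3 counts, and covers counting error only. Alternatives were DESeq2 1.42.0, limma 3.58.1 (voom, and trend on log2(TPM + 1) and log2(TPM + 0.1)), no filter, only the groups compared, a term for the A491 stem, and leaving out each library. No 2 libraries agreed within sampling noise.

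The members and all gene lists were chosen with earlier results of these data known. A member of low level and a gene of the lists are not reported here. Library values are given for members of at least 1 TPM on average. Fold changes are given for members past the threshold, those whose tumour and wild-type libraries do not overlap, and the 3 largest per comparison. From each list, some called genes or genes of the smallest p are named. Other listed genes, such as Fshr, Krt19, Emx2, Msx1, Foxj1, Aldh1a2 and Hotair, were named outside this rule, with their values known. Protein sequences were not used here.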

Additional observations from a re-analysis of the deposited data

Results flagged for a closer look

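Among the 6 libraries of the C134W groups, 25 levels (20 members of at least 1 TPM on average, 4 cluster sums and the sum of all Hox genes) were looked at for a single library far from the other 5, by Dixon's criterion at 95%; groups of 3 were not looked at. Chance flags about 1 in 20 such groups, and 3 of the 25 levels stood out. The sums are made of the same members and the 6 libraries mix 2 groups, so these rates cannot be compared. The sum of all Hox genes was 29.46 TPM in tumour 2, far under the other 5 libraries, which had 191.6 to 263.6 TPM. Hoxc11 was 15.76 TPM in tumour 1, far over the next highest library, tumour 3, at 2.71 TPM. Hoxb9 was 1.98 TPM in tumour 3, against 0.4 to 0.79 TPM in the other 5, from 30 counts against 9 to 19. Wild-type ovaries, which were not part of this check, had 1.18 to 2.09 TPM of Hoxb9, a range that holds tumour 3.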

How the results depend on the processing

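No Hox gene passed the threshold in any of the 4 comparisons under any alternative, with 1 exception: DESeq2's Wald test called 1, Hoxc11, between tumour and wild type. Of 326 fold changes recomputed for the members named, 321 kept their direction and their side of the threshold. Over all members tested, 121 of 1504 fold changes turned. Among the named ones 4 turned, those of Hoxc10 (-0.28 with limma-voom, -0.15 on log2(TPM + 0.1)) and Hoxc9 (-0.38 and -0.125 under the same 2 settings), tumour over wild type. With limma-voom they also turned for tumour over hyperplasia, to -1.02 for Hoxc9, against 0.89, and to -1.30 for Hoxc10, against 0.99. Both genes are at 0 in tumour 2, and the cause was not tested. The median log2 fold change of the Hox genes moved throughout by less than 1 SD of the library medians, taken from the group with the larger SD. In comparisons with tumours, tumour 2 is among the libraries that set this SD, so a move under it does not show stability. Leaving out 1 library, the median ran between -0.71 and -0.10 for tumour over wild type, with -0.10 reached without tumour 2. In CPM in place of TPM, the ratios of group means were recomputed for the 4 clusters and the 20 members of at least 1 TPM. They moved by less than the spread carried over from the SDs of both groups. That spread is wide in tumours, as for Hoxc with an SD of 77.79 TPM on a mean of 89.03 TPM, so the check is weak. Without tumour 2 the tumour mean was 130.3 TPM for Hoxc, against 89.03 TPM with it, and 10.39 TPM for Hoxa, against 7.34 TPM with it.

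The share of all genes called moved far more. Between tumour and wild type it was 10.8% with DESeq2's Wald test, 2.5% with no filter, 2.64% on log2(TPM + 1), 2.84% on log2(TPM + 0.1), and 0.0 to 0.413% with 1 library left out, against 1.6%. Between hyperplasia and wild type it was 0.111% with DESeq2's Wald test, 0.00693% with no filter, 0.00617% on log2(TPM + 1) and 0.0187% with only the groups compared, against 0.0%. Between tumour and hyperplasia it was 5.03% with DESeq2's Wald test, 0.0247% with limma-voom, 0.69% with no filter, 0.469% on log2(TPM + 1), 0.709% on log2(TPM + 0.1), 0.00656% with only the groups compared, and 0.0 to 0.769% with 1 library left out, against 0.185%. For both C134W groups against wild type it was 3.65% with DESeq2's Wald test, 1.22% with limma-voom, 1.15% with no filter, 1.07% on log2(TPM + 1), 0.894% on log2(TPM + 0.1), and 0.0 to 0.806% with 1 library left out, against 0.0123%. With the replicate block, a term for the A491 stem, it was 0.0% between tumour and wild type, 0.074% between tumour and hyperplasia and 0.0% for both C134W groups; only 1 pair shares a stem, so this is no check of pairing, and it changed no call of a Hox gene. The cause of these moves was not tested.

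Depth limits the low members most: 13 of the 39 did not pass the filter, and none of those had over 24 counts in any library.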
